A study of Mus musculus with 18 samples.

Results

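The genes described here encode the subunits of heterotrimeric G proteins and the RGS proteins, the regulators of G protein signalling. They were chosen by symbol among the genes with a probe set of their own: the alpha subunit genes of the Gnai, Gnao, Gnaq, Gnas, Gnaz, Gnal and Gna1 series, Gnb1 to Gnb5, the numbered gamma subunit genes (Gng) and the numbered RGS genes. The rule found 49 of 18193 genes, with 118 probe sets among them, and where a gene had several, its brightest probe set by mean signal was used. The 49 genes were 13 alpha, 5 beta and 9 gamma subunits, 19 RGS proteins, 2 binding proteins of the R7 class of RGS proteins (Rgs7bp and Rgs9bp) and Gnasas1, an antisense RNA of the Gnas locus that the rule takes in by its name. Gng5 was not described, since its 3 probe sets are shared with a related sequence.

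RNA of the mouse hippocampus was measured on arrays in 6 groups of 3 arrays each, 18 in all. IH5DR2 and IH5D mice went through intermittent hypoxia treatment (IHT) on 5 days. IH5DR2 mice then had 64 h of room air, 2 days of recovery, whereas IH5D mice were sacrificed when the last session ended. IH28D mice had 28 days of IHT. The 12 m mice were reared for 12 months with no hypoxia, Ctrl28 mice were kept for 28 days in room air, and Ctrl mice were the untreated young control. The 3 Ctrl28 samples have record numbers apart from those of all other samples. Whether they were also processed apart is not known, and any such difference cannot be told apart from group in comparisons with Ctrl28. The strain is given as C57Bl/6 in the labels and as C57BL/6J in the methods, per which the mice were males and 10 weeks old at the start of a protocol. A cycle of IHT took 3 min, of which nitrogen flowed for 1 min and room air for 2 min, so that inspired O2 moved between 21% and 5%, and cycles ran for 8 h per day. The labels do not tell whether each array carries the RNA of a separate mouse, so the p-values measure the spread between arrays, which may be technical in part. The hippocampus was taken as whole tissue, and fewer cells of a type cannot be told apart from less RNA per cell.

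A G protein is a switch made of an alpha, a beta and a gamma subunit. A receptor at the membrane makes alpha exchange GDP for GTP, upon which alpha and the beta-gamma dimer part and act on enzymes and channels. Gs alpha subunits stimulate adenylyl cyclase and Gi alpha subunits inhibit it, and Gq activates phospholipase C beta. RGS proteins speed up the hydrolysis of GTP by alpha and so shorten the signal. In hippocampal neurons these proteins carry the answers to muscarinic, metabotropic glutamate, serotonin and GABA-B receptors.

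The promoters of 5 members are shown because these genes mark the ends of what follows: Rgs17, Gnaq, Gnai1 and Rgs5 were higher in most groups than in Ctrl, and Gnb2 was lower. The sequences are the 250 bases before the gene's start in RefSeq on build GRCm38.p6, read 5′ to 3′ on the gene's strand. Capitals mark matches on either strand to ACGTG, the core that hypoxia-inducible factors bind, or TGACG, a motif of cAMP response elements. The 2 motifs can overlap, as in TGACGTG.
Rgs17: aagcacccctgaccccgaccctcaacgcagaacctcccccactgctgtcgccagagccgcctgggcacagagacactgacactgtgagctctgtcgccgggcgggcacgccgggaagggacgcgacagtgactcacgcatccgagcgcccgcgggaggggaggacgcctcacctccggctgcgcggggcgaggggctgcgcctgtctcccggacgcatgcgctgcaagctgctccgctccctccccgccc
Gnaq: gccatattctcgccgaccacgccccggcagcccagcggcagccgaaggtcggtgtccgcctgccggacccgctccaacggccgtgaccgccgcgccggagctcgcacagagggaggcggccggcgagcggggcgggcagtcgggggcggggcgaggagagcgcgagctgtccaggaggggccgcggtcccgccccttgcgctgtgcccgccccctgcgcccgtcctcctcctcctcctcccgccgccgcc
Gnai1: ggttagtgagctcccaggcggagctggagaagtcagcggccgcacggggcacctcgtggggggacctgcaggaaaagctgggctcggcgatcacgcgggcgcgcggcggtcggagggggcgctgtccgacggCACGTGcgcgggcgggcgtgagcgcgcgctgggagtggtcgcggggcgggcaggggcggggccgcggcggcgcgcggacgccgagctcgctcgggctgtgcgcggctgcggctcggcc
Rgs5: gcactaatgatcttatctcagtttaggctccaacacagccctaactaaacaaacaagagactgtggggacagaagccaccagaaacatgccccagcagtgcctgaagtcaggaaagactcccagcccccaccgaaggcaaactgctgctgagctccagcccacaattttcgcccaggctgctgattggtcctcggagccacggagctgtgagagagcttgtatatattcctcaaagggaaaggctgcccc
Gnb2: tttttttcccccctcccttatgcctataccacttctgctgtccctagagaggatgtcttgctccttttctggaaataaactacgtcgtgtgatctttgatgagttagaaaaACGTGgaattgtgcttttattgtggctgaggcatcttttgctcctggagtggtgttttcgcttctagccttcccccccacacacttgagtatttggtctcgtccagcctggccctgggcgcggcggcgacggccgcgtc

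The windows lie at chr10:5922401-5922650 on the minus strand for Rgs17, chr19:16132434-16132683 on the plus strand for Gnaq, chr5:18360414-18360663 on the minus strand for Gnai1, chr1:169655251-169655500 on the plus strand for Rgs5 and chr5:137533307-137533556 on the minus strand for Gnb2. The Gnai1 window holds 2 matches to ACGTG, which are 1 palindrome read on both strands, the Gnb2 window holds 1, and none of the 5 windows holds TGACG. The motif ACGTG was found in 18.5% of the 27025 genes with such a window and in 9 of the 36 members with one. TGACG was found in 19.8% of these genes and in 9 of the 36 members. The windows of Gnai1, Gnaq and Rgs17 hold 43, 37 and 27 CG dinucleotides, that of Gnb2 12 and that of Rgs5 4, against a median of 6 over all genes and 17.25 over the 36 members. A match to letters is a description and not a binding site.

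Some arrays stood apart. Array 3 of 12 m had a sum of 9 hippocampal neuron markers of 1132, against 2581 to 3380 on the other 17 arrays. Its sum of 6 neocortex markers was 4810, against 1594 to 2530.5 elsewhere, and its sum of 8 markers of striatum and septum was 2686, against 1016 to 1456 elsewhere. The array labelled hippocampus thus went against its tissue markers. Array 1 of Ctrl28 had a 3′ to 5′ gap, the log2 excess of 3′ over 5′ control probe sets and a sign of RNA quality, of 2.39, against 0.33 to 0.97 on the others. By group this gap was 0.62 to 0.86 in 12 m, 0.82 and 0.97 on Ctrl28 arrays 2 and 3, and 0.33 to 0.53 in the remaining groups. The gap thus followed group, and leaving out array 1 of Ctrl28 does not remove this. Sums of 6 choroid plexus markers were 708 to 1754 in 12 m, and 1785 to 19408 on the other arrays. The numbers of members called in a comparison are therefore given also without one or both of these arrays, while counts by role, by probe set and of partners are over all 18 arrays.

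Of the 49 genes, 39 had a mean signal above 20 and were tested, and no count below speaks for the other 10. These were Gna14, Gna15, Gnasas1, Gnb3, Gng8, Rgs1, Rgs13, Rgs18, Rgs6 and Rgs9bp. The test was limma on log2 signals over all 18 arrays, with p-values adjusted over 11656 genes, and a gene is said to rise or fall where the adjusted p is below 0.05. Differences are log2 differences, the group named first minus the group named second, and signals are unlogged array units. Since probe sets respond unequally, signals are compared between groups and not between genes.

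After 5 days of IHT, 4 of the 39 members rose and 0 fell in IH5D against Ctrl, where 5.4% of all genes rose and 1.12% fell. The 4 were Gnaq, Rgs5, Rgs7bp and Gnai1. In IH5DR2 against Ctrl, 4 members rose and 0 fell, against 4.38% and 1.24% of all genes, and these were Rgs17, Gnal, Gnaq and Rgs5. Neither comparison moved the members away from the other genes as a whole, since the median difference of the members was -0.07 in IH5D and -0.04 in IH5DR2, against -0.09 and -0.07 over all genes. Both counts depended on which arrays entered the fit. Without Ctrl28 array 1, which is in neither comparison but in the shared estimate of the spread, they were 11 for IH5D and 11 for IH5DR2, and without both doubted arrays 12 and 13. Each count was 0 without Ctrl array 2 or Ctrl array 3. The IH5D count was also 0 without IH5D array 1 or 3, and the IH5DR2 count was also 0 without IH5DR2 array 2 or 3. Without Ctrl array 1, 7 members passed in IH5D and 8 in IH5DR2. Equally numbered arrays of IH5D and Ctrl deviated together, and a replicate block gave 3 calls over all 18 arrays, and 21 calls (9 up, 12 down) when only the 6 arrays of IH5D and Ctrl were fitted. Of all genes, 434 and 4092 passed in these 2 fits.

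Between IH5DR2 and IH5D no member passed, and 0% of all genes passed in either direction by limma. By the methods these groups differ also in the hour of killing, whose part was not tested. At an unadjusted p below 0.05, 1 member (Gnb1, 0.33) and 418 of 11656 genes were below the line by limma, and 4 members and 700 genes by the methods' t-test, of which 0 remained after adjustment. Signals of the lead genes in the 2 groups are given side by side below.

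After 28 days of IHT, 6 of 39 members rose and 2 fell in IH28D against Ctrl28, where 6.05% and 2.45% of all genes did. The 6 were Rgs17, Rgs11, Gnao1, Gnaz, Rgs7bp and Gnb1, and the 2 that fell were Gnal and Gnai1. The members' median was 0.10, against 0.02 over all genes. All 8 calls were lost when only the 6 arrays of IH28D and Ctrl28 were fitted, a setting in which 35 of all genes passed. Without Ctrl28 array 1 there were 14 calls, and without both doubted arrays 18, of which 7 were among the 8. Of all genes, 1818 and 2135 were called in these 2 fits. Against the young Ctrl, which differs from IH28D also by 28 days of keeping, 9 rose and 7 fell, where 17.5% and 15.8% of all genes did. This second count was 25 without Ctrl28 array 1, 26 without both doubted arrays, and 7 without Ctrl array 2 and 8 without Ctrl array 3. In the same order, 5200, 5621, 1664 and 2372 of all genes were called. When each array was centred on its median, 6 members rose and 11 fell against Ctrl, where 1548 and 2450 of all genes did. With this centring 3 rose and 2 fell against Ctrl28, where 291 and 148 of all genes did.

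In 12 m against Ctrl, 9 of 39 members rose and 13 fell, where 21.7% and 31.6% of all genes did, so that the members were called about as often as other genes. The members' median was -0.26 and that of all genes -0.23. Centring on the median moved the median of all genes to -0.47, with 8 members up and 20 down, where 1890 of all genes rose and 5316 fell. Without 12 m array 3, 24 members passed, and without both doubted arrays 27, among which were all 22. Of all genes, 5736 and 6842 passed in these 2 fits. In 12 m against Ctrl28, 5 rose and 4 fell, where 8.04% and 8.3% of all genes did. This count was 5 without 12 m array 3 and 11 without both doubted arrays, and it was 0 when only the 6 arrays of 12 m and Ctrl28 were fitted. In the same order, 1145, 1652 and 172 of all genes passed. With median centring 3 members rose and 6 fell, where 572 and 2202 of all genes did. With quantile normalization 7 rose and 4 fell, where 894 and 1078 of all genes did.

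Between the controls, 8 members rose and 14 fell in Ctrl28 against Ctrl, where 16.9% and 21% of all genes did. The members' median was -0.28 and that of all genes -0.08. All 22 calls were kept without Ctrl28 array 1, when 28 passed, and without both doubted arrays, when 29 passed. With the 6 control arrays fitted alone 12 passed. Of all genes, 6210, 6544 and 1972 passed in these 3 fits. Arrays 2 and 3 of Ctrl28, which stay in each fit, also had higher 3′ to 5′ gaps than the Ctrl arrays. The test of the difference between the 28-day and the 5-day response, each taken against its own control, found 4 members with a higher and 3 with a lower response at 28 days, where 6.57% and 3.08% of all genes passed. The higher ones were Gnao1, Gnaz, Gnb1 and Gnb2, and the lower ones Gnal, Gnai1 and Gnaq. Without Ctrl28 array 1 the count was 19, and without Ctrl array 2 it was 4, where 3331 and 529 of all genes passed.

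**Figure D1:**
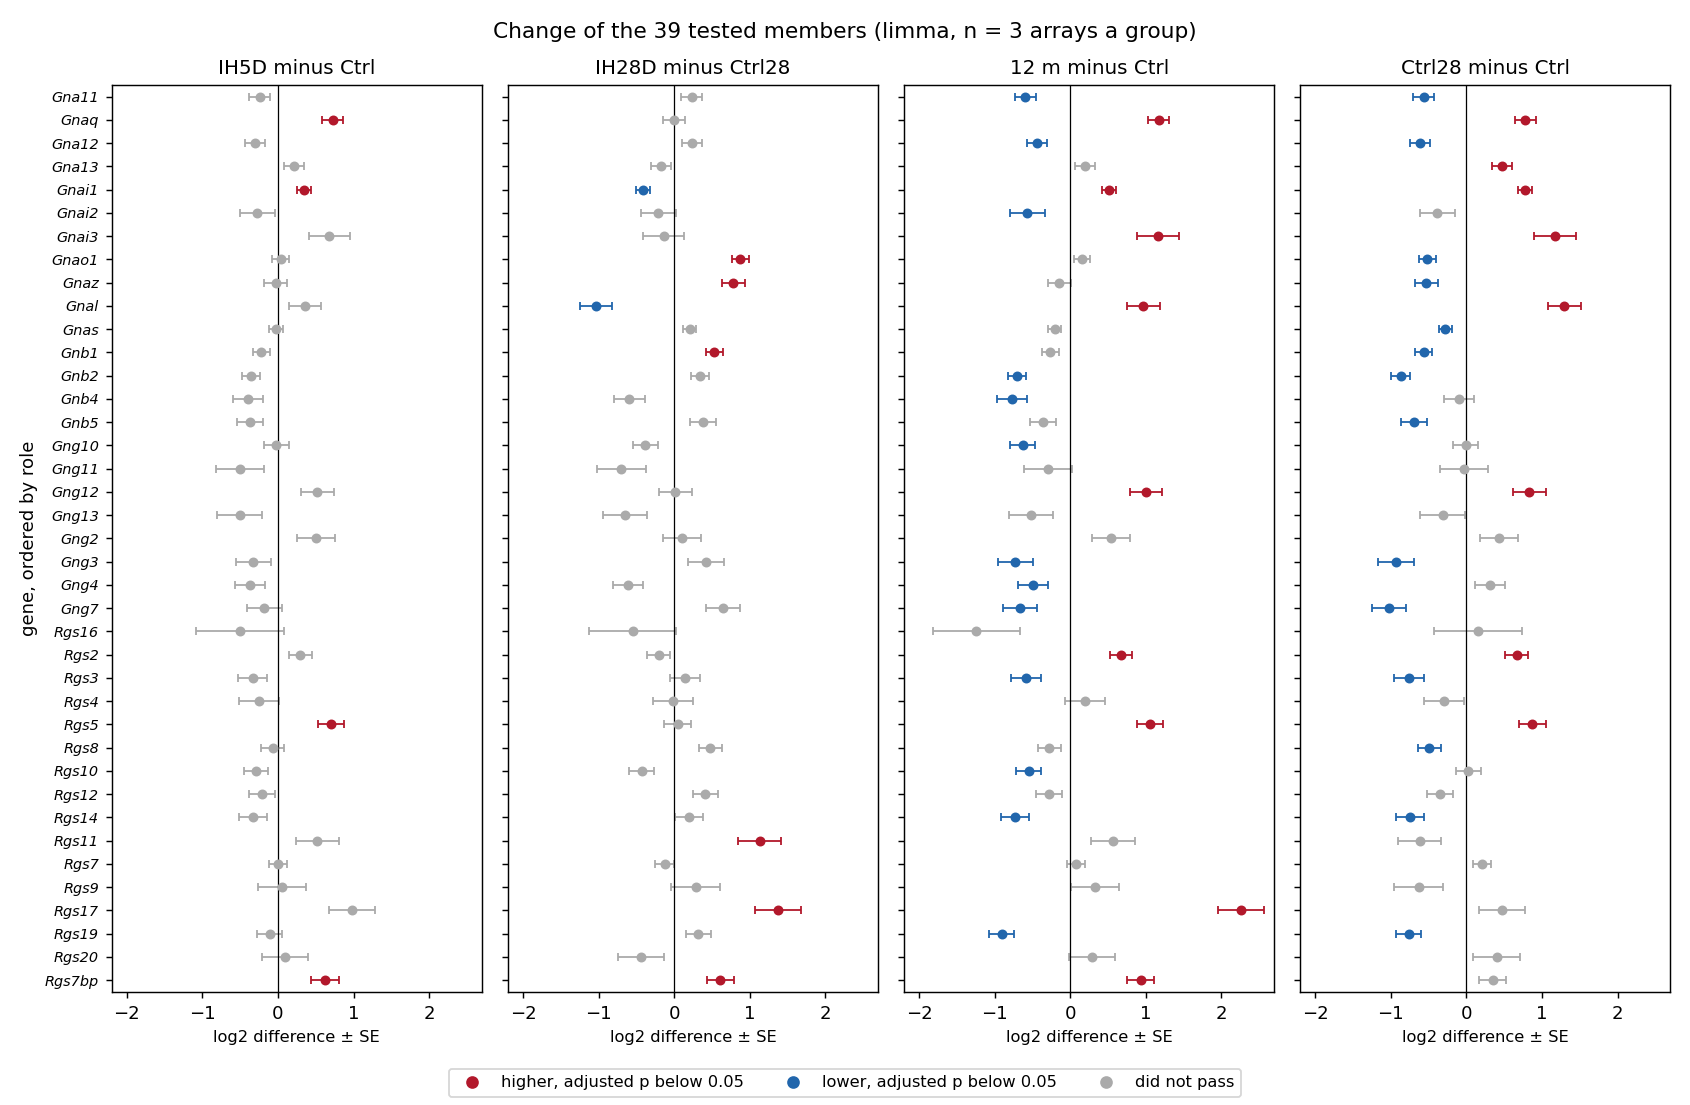
Log2 difference with SE (x axis) of the 39 tested members (y axis, ordered by role) in 4 comparisons, with members past an adjusted p of 0.05 in red (higher) or blue (lower) and the others in grey. All 4 called members in IH5D minus Ctrl lie to the right of 0, and the 12 m and Ctrl28 columns hold 22 calls each.

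Among the Gq alpha subunits, which activate phospholipase C beta, Gnaq was higher in each other group than in Ctrl. Its signals were 958, 948 and 834 in IH5DR2, 1095, 884 and 913 in IH5D, 935, 1116 and 947 in IH28D, 1301, 1362 and 1254 in 12 m, 939.6, 936 and 1125 in Ctrl28 and 722, 488 and 553 in Ctrl. All 3 Ctrl arrays lay below the other 15, and all 3 arrays of 12 m lay above the other 15. Gnaq rose by 0.73 ± 0.14 (SE, adjusted p = 0.0129) in IH5D, 0.65 ± 0.14 (SE, adjusted p = 0.022) in IH5DR2 and 1.17 ± 0.14 (SE, adjusted p = 1.67e-05) in 12 m against Ctrl. In Ctrl28 against Ctrl it rose by 0.78 ± 0.14 (SE, adjusted p = 0.000472) and in IH28D by 0.78 ± 0.14 (SE, adjusted p = 0.00144). The IH28D and Ctrl28 arrays overlapped, and their difference did not pass (adjusted p = 0.999). The IH5D call was lost without IH5D array 1 or 3 or Ctrl array 2 or 3, with a highest adjusted p of 0.103, and the IH5DR2 call was lost without any of its 3 arrays or Ctrl array 2 or 3, with a highest of 0.14. All 5 probe sets of Gnaq above the minimum were called up in 12 m, with differences of 0.71 to 1.48. In IH28D against Ctrl28 they ranged from -0.0003 to 1.03, and none was called.

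Gna11, the close relative of Gnaq that activates the same enzyme, went the other way. It had 721, 696 and 771 in IH5DR2, 732, 719.6 and 689 in IH5D, 649, 598 and 771 in IH28D, 630.0, 513 and 540.0 in 12 m, 724, 537 and 477 in Ctrl28 and 789, 879 and 867 in Ctrl. All 3 Ctrl arrays lay above the other 15. Gna11 fell by 0.60 ± 0.14 on the log2 scale in 12 m (SE, adjusted p = 0.00238) and by 0.57 ± 0.14 in Ctrl28 (SE, adjusted p = 0.00503), both against Ctrl, and both of its probe sets were called down in each. Its difference in IH5D against Ctrl was -0.24 (adjusted p = 0.258). Gna14 and Gna15, further members of the class, were not tested.

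Of the Gi/o alpha subunits, Gnai1, which inhibits adenylyl cyclase, was lowest in Ctrl and highest in Ctrl28. Its signals were 2084, 2133 and 2349.6 in IH5DR2, 2119, 2177 and 2463 in IH5D, 2251, 2216 and 2359 in IH28D, 2491, 2488 and 2589.7 in 12 m, 3087, 2971 and 3041 in Ctrl28 and 1709, 1746 and 1848 in Ctrl. Ctrl lay below all other arrays and Ctrl28 above all others, with the treated and the old arrays between. IH28D was lower than Ctrl28, at -0.42 ± 0.09 (SE, adjusted p = 0.00968), and higher than Ctrl, at 0.36 ± 0.09 (SE, adjusted p = 0.00801). Both calls held without each single array of the groups compared. The second did not hold when arrays were centred on their median, and the first did not hold after quantile normalization, with the mean of all probe sets or when IH28D and Ctrl28 were fitted alone. In Ctrl28 against Ctrl, Gnai1 rose by 0.78 ± 0.09 (SE, adjusted p = 1.46e-05), and all 3 of its probe sets were called up. In IH28D against Ctrl28 the other 2 probe sets had differences of -0.14 and -0.11 and did not pass. The rise in IH5D, 0.35 (adjusted p = 0.0366), was lost without any of the 6 arrays compared, with a highest adjusted p of 0.161.

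Gnao1, the alpha subunit of Go and the main G protein alpha of brain, was lowest in Ctrl28. It had 1075, 1097 and 1159 in IH5DR2, 1000.0, 881 and 987 in IH5D, 1259.8, 1128 and 1196 in IH28D, 1012, 969 and 1132 in 12 m, 651, 639 and 658 in Ctrl28 and 1003, 796 and 1005 in Ctrl. The 3 Ctrl28 arrays lay below all the other 15. Gnao1 rose in IH28D against Ctrl28 by 0.88 ± 0.11 (SE, adjusted p = 0.000122) and in 12 m against Ctrl28 by 0.67 ± 0.11 (SE, adjusted p = 0.00126). It fell by 0.52 ± 0.11 on the log2 scale in Ctrl28 against Ctrl (SE, adjusted p = 0.00181). IH28D also lay above Ctrl, at 0.36 ± 0.11 (SE, adjusted p = 0.0209), a call lost without IH28D array 1 or Ctrl array 2 with an adjusted p of up to 0.129. Its only other probe set above the minimum had a mean signal of 27.4 and passed in none of these, and none of the calls held with the mean of both probe sets.

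**Figure D2:**
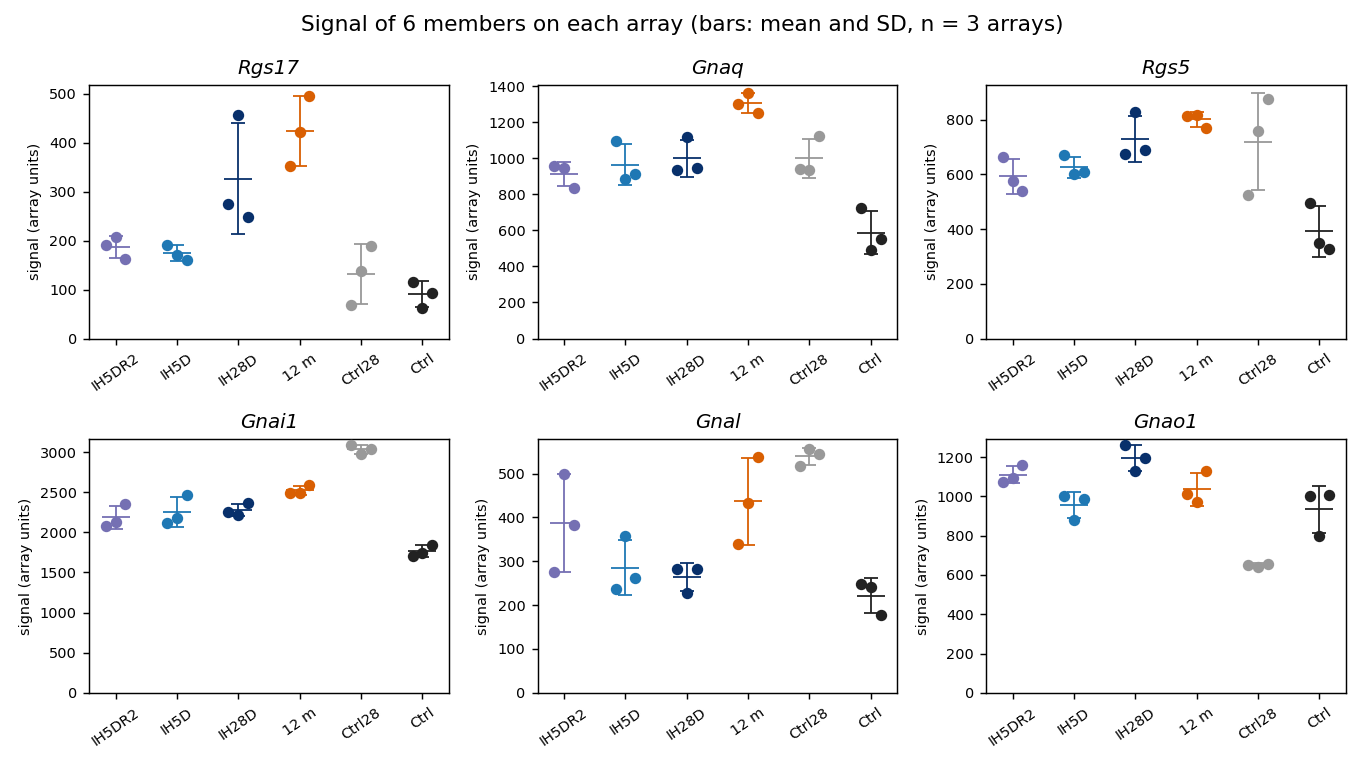
Unlogged array signal (y axis, from 0) of Rgs17, Gnaq, Rgs5, Gnai1, Gnal and Gnao1 on each array, by group (x axis), with the mean and SD of the 3 arrays as bars. Ctrl is lowest for Gnaq, Rgs5 and Gnai1, Ctrl28 is highest for Gnai1 and lowest for Gnao1, and Rgs17 is highest in 12 m and IH28D.

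Gnaz, a Gi type alpha subunit that pertussis toxin does not modify, had 196, 241 and 258 in IH5DR2, 229.5, 179 and 205 in IH5D, 238, 238 and 269 in IH28D, 185, 184 and 194 in 12 m, 184, 119 and 136 in Ctrl28 and 197, 206 and 221 in Ctrl. All IH28D arrays lay above all Ctrl28 arrays. Gnaz rose in IH28D against Ctrl28 by 0.78 ± 0.16 (SE, adjusted p = 0.00452) and fell by 0.53 ± 0.16 on the log2 scale in Ctrl28 against Ctrl (SE, adjusted p = 0.0133). The second call was lost without Ctrl28 array 2 or 3 or Ctrl array 3, with an adjusted p of up to 0.0838. A second probe set of Gnaz had differences of -0.22 and 0.23 in these 2 comparisons, opposite in sign, and did not pass.

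Gnai3, another inhibitor of adenylyl cyclase, had 169, 175 and 165 in IH5DR2, 149, 151 and 160.3 in IH5D, 209, 204 and 176 in IH28D, 230.5, 239.8 and 176 in 12 m, 117, 296 and 290.0 in Ctrl28 and 139, 81.3 and 77.6 in Ctrl. The IH28D and 12 m arrays lay above all Ctrl arrays, while Ctrl28 array 1 lay inside the range of Ctrl. Gnai3 rose by 1.03 ± 0.28 (SE, adjusted p = 0.0105) in IH28D, 1.16 ± 0.28 (SE, adjusted p = 0.00235) in 12 m and 1.17 ± 0.28 (SE, adjusted p = 0.00327) in Ctrl28, each against Ctrl, and the IH28D call was lost without Ctrl array 2 or 3, with a highest adjusted p of 0.0578. Gnai2, the remaining Gi subunit, had 732, 741 and 638 in IH5DR2, 675, 784 and 696 in IH5D, 646, 491 and 596 in IH28D, 585, 614 and 554 in 12 m, 1183, 525 and 469 in Ctrl28 and 777, 899 and 925 in Ctrl. Array 1 of Ctrl28, the one with the high 3′ to 5′ gap, was the highest of all for Gnai2, and arrays 2 and 3 were lower than any Ctrl array. The fall of Gnai2 in 12 m, -0.57 (adjusted p = 0.0479), was lost without any of the 6 arrays compared, with a highest adjusted p of 0.121. In Ctrl28 against Ctrl the difference was -0.38 (adjusted p = 0.201), and without Ctrl28 array 1 it was -0.80 (adjusted p = 5.54e-05). The part of RNA quality in this was not tested. A second probe set of Gnai2 was called down in Ctrl28 against Ctrl over all arrays, at -1.06. In IH28D against Ctrl28 that probe set was called up, at 0.91, where the brightest probe set had -0.21 and did not pass.

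The 2 alpha subunits that stimulate adenylyl cyclase differed. Gnas, the Gs alpha subunit, had 5709, 5974 and 5792 in IH5DR2, 5573, 5715 and 5787 in IH5D, 5655, 5472 and 5386 in IH28D, 5063, 5043 and 4949 in 12 m, 5206, 4608 and 4538 in Ctrl28 and 5369, 5870.0 and 6155 in Ctrl. Arrays of 12 m and Ctrl28 were lower than all Ctrl arrays. It fell by 0.28 ± 0.09 on the log2 scale in Ctrl28 against Ctrl (SE, adjusted p = 0.0193), and in 12 m the difference of -0.21 did not pass (adjusted p = 0.0554). The Ctrl28 call was lost without Ctrl28 array 2 or 3 or Ctrl array 2 or 3, with a highest adjusted p of 0.0897. In IH5D and IH5DR2 the differences from Ctrl of -0.02 and 0.01 did not pass. The Gnas locus makes several overlapping transcripts, and its probe sets can share them. The other 2 probe sets of Gnas, with mean signals of 20.95 and 20.96 just above the minimum, had differences of -2.27 (adjusted p = 0.0245, called down) and 0.69 (adjusted p = 0.163) in 12 m against Ctrl. In Ctrl28 against Ctrl they had -0.77 and 0.42 and did not pass, and the call of Gnas there was lost with the mean of its probe sets.

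Gnal, the olfactory form of Gs that striatal neurons use with their dopamine and adenosine receptors, had 276, 499 and 383 in IH5DR2, 237, 357 and 262 in IH5D, 283, 227 and 283 in IH28D, 339.9, 432 and 538 in 12 m, 517, 556 and 544 in Ctrl28 and 248, 240.4 and 177 in Ctrl. Ctrl28 was high on all 3 arrays, IH28D overlapped with Ctrl, and array 2 of IH5DR2 and array 3 of 12 m were the highest of their groups. Gnal fell by 1.04 ± 0.21 on the log2 scale in IH28D against Ctrl28 (SE, adjusted p = 0.00575). It rose by 1.30 ± 0.21 (SE, adjusted p = 0.000217) in Ctrl28 and by 0.97 ± 0.21 (SE, adjusted p = 0.00136) in 12 m, both against Ctrl. The rise in IH5DR2, 0.77 (adjusted p = 0.0432), was lost without IH5DR2 array 2 or 3 or Ctrl array 2 or 3, with a highest adjusted p of 0.162. Its second probe set was called up in 12 m and in Ctrl28, and had a difference of -0.09 in IH28D against Ctrl28. Array 3 of 12 m also had the highest sum of striatum and septum markers. Without that array the rise in 12 m was 0.80 (adjusted p = 0.00878).

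Gna12 and Gna13, the alpha subunits of the G12 class, moved apart against Ctrl by their brightest probe sets. Gna12 had 188, 219 and 230.4 in IH5DR2, 204, 190.1 and 178 in IH5D, 184, 172 and 186 in IH28D, 161, 177 and 182 in 12 m, 159, 175 and 129 in Ctrl28 and 217, 257 and 233 in Ctrl. The arrays of IH28D, 12 m and Ctrl28 lay below all Ctrl arrays. It fell in 12 m (-0.44, adjusted p = 0.0111), in Ctrl28 (-0.62, adjusted p = 0.00197) and in IH28D (-0.38, adjusted p = 0.0379), each against Ctrl. The IH28D call was lost without any array of the 2 groups except Ctrl array 1, with a highest adjusted p of 0.149, and the 12 m call without Ctrl array 2 (adjusted p = 0.0552). Gna13 had 395, 412 and 488 in IH5DR2, 369.9, 430.2 and 480.2 in IH5D, 479, 407 and 469 in IH28D, 416, 463 and 382 in 12 m, 477, 517 and 537 in Ctrl28 and 411, 337 and 358 in Ctrl. It rose in Ctrl28 against Ctrl by 0.47 ± 0.13 (SE, adjusted p = 0.0101), its only call, which was lost without Ctrl array 2 (adjusted p = 0.0528). The call was also lost with the mean of all probe sets and with the 2 groups fitted alone. All Ctrl28 arrays lay above all Ctrl arrays. Of the 6 probe sets of Gna13, 1 was called down in 12 m and 1 in IH28D against Ctrl, with ranges of -0.59 to 0.55 and -0.71 to 0.62. A second probe set of Gna12 was called up against Ctrl28 in IH28D (2.78) and 12 m (2.20).

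**Figure D3:**
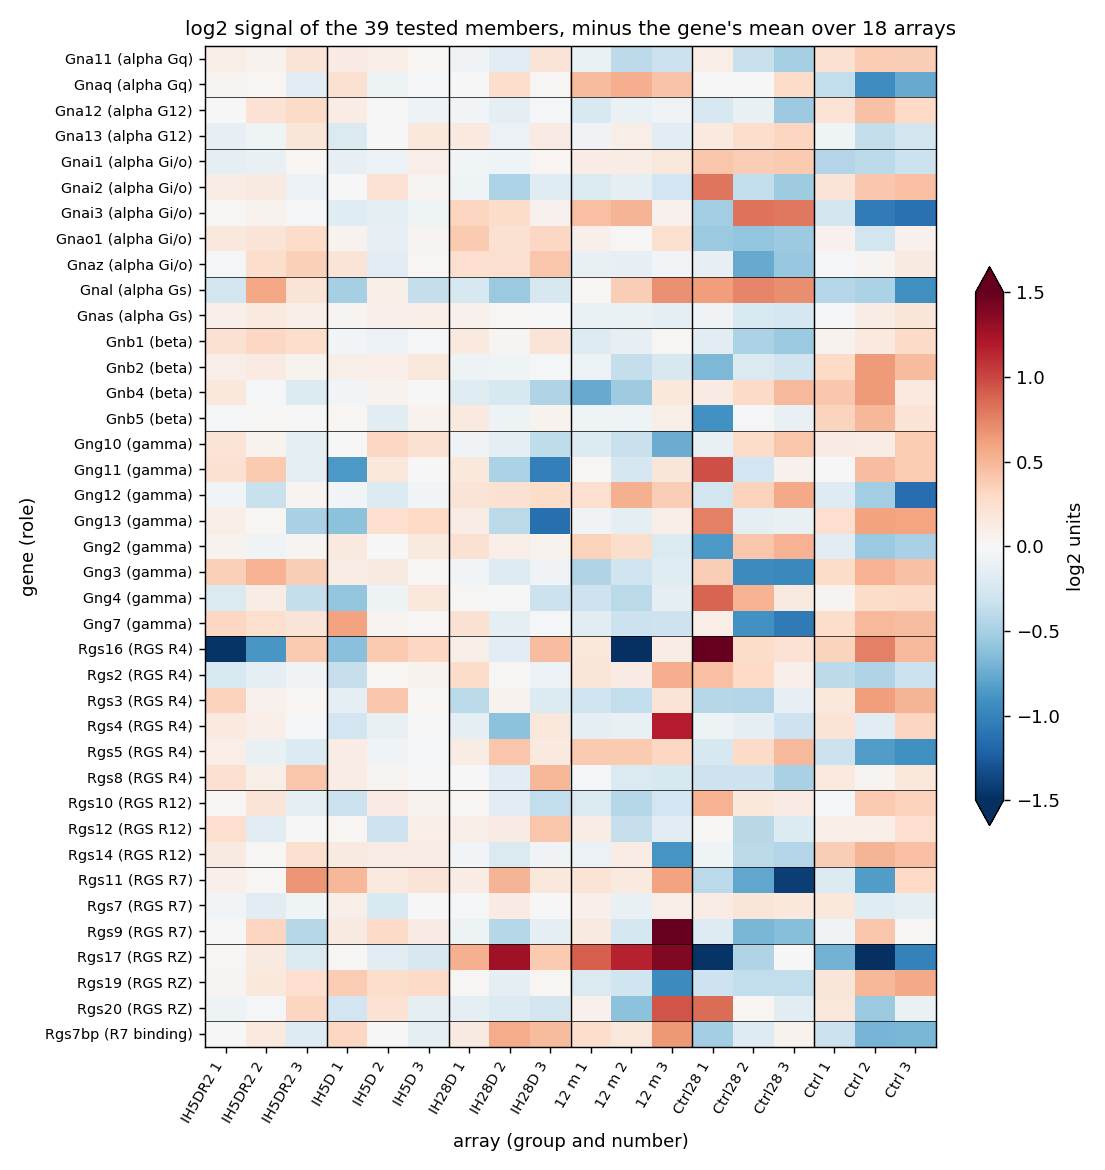
Log2 signal of the 39 tested members (rows, by role) on each of the 18 arrays (columns, by group), each gene minus its mean over the arrays, with the colour scale ending at 1.5. Array 1 of Ctrl28 departs from arrays 2 and 3 of its group for Gnai2, Gnai3, Gng2, Gng3 and Gnb5, and array 3 of 12 m departs for Rgs4, Rgs9, Rgs14 and Rgs20.

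No beta subunit rose against Ctrl in any group. Gnb2, which forms dimers with most gamma subunits, had 1436, 1466 and 1397 in IH5DR2, 1425, 1436 and 1508 in IH5D, 1273, 1283 and 1318 in IH28D, 1263, 1051 and 1133 in 12 m, 841, 1152 and 1095 in Ctrl28 and 1654, 2094 and 1868 in Ctrl. All Ctrl arrays lay above the other 15. Gnb2 fell by 0.87 ± 0.12 on the log2 scale in Ctrl28 (SE, adjusted p = 6.09e-05), by 0.70 ± 0.12 in 12 m (SE, adjusted p = 0.000235) and by 0.53 ± 0.12 in IH28D (SE, adjusted p = 0.00505), each against Ctrl. These 3 calls were kept without each single array of the groups compared. In IH5D and IH5DR2 the differences of -0.36 (adjusted p = 0.0787) and -0.38 (adjusted p = 0.0699) did not pass. Only 1 probe set of Gnb2 lay above the minimum.

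Gnb1, the most widely used beta subunit, had 1317, 1393 and 1347 in IH5DR2, 1088, 1051 and 1097 in IH5D, 1240.0, 1158 and 1284 in IH28D, 977, 1027 and 1135 in 12 m, 993, 805 and 759.6 in Ctrl28 and 1164, 1243 and 1366 in Ctrl. The IH28D and Ctrl arrays overlapped and lay above those of Ctrl28. It rose in IH28D against Ctrl28 by 0.53 ± 0.11 (SE, adjusted p = 0.00648) and fell by 0.57 ± 0.11 on the log2 scale in Ctrl28 against Ctrl (SE, adjusted p = 0.000976). Its second probe set had a difference of -0.25 in IH28D against Ctrl28 and did not pass. Gnb5, the beta subunit that pairs with R7 RGS proteins, had 493, 512 and 507 in IH5DR2, 515, 450.2 and 524 in IH5D, 557, 480.4 and 523 in IH28D, 484, 481 and 534 in 12 m, 269.7, 498 and 467 in Ctrl28 and 635, 714 and 582 in Ctrl. Ctrl lay above all other arrays, and array 1 of Ctrl28 was the lowest of all 18. The fall in Ctrl28 was 0.69 ± 0.17 on the log2 scale (SE, adjusted p = 0.00486). With RNA quality (the 3′ to 5′ gap) in the fit Gnb5 differed by -0.15 in Ctrl28 against Ctrl (adjusted p = 0.389), and with these 2 groups fitted alone its adjusted p was 0.0793. Leaving out Ctrl28 array 1 gave -0.41 (adjusted p = 0.00497). Gnb4, a further beta subunit, had 120.2, 105 and 93.05 in IH5DR2, 105, 112 and 107 in IH5D, 94.8, 91.2 and 78.7 in IH28D, 63.9, 74.5 and 120.2 in 12 m, 117, 131 and 151 in Ctrl28 and 143, 167 and 119.6 in Ctrl. Arrays of 12 m and Ctrl overlapped. Gnb4 fell in 12 m against Ctrl (-0.77, adjusted p = 0.00396) and against Ctrl28 (-0.67, adjusted p = 0.0284) and in IH28D against Ctrl (-0.69, adjusted p = 0.0154). The call against Ctrl28 was lost without 12 m array 1 or 2 or Ctrl28 array 2 or 3, with a highest adjusted p of 0.12, and that in IH28D without IH28D array 3 or Ctrl array 2, with a highest of 0.0845.

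Of the gamma subunits, which anchor the dimer to the membrane, 1 rose and 4 fell in 12 m against Ctrl, of 8 tested, where 21.7% of all genes rose and 31.6% fell. Gng3 and Gng7 had the deepest falls. Gng3, a gamma subunit of neurons, had 921, 1031 and 926 in IH5DR2, 775, 787 and 725 in IH5D, 694, 628 and 692 in IH28D, 523, 582 and 631 in 12 m, 922, 369 and 367 in Ctrl28 and 869, 1028 and 973 in Ctrl. Arrays 2 and 3 of Ctrl28 were the lowest of all, whereas array 1 lay among those of Ctrl. Gng3 fell by 0.93 ± 0.23 on the log2 scale in Ctrl28 (SE, adjusted p = 0.00512) and by 0.73 ± 0.23 in 12 m (SE, adjusted p = 0.0156), both against Ctrl. The 12 m call was lost without 12 m array 1 or Ctrl array 2, with a highest adjusted p of 0.0568. Without Ctrl28 array 1 the first difference was -1.38 (adjusted p = 8.76e-08), and Gng3 then also rose in IH28D against Ctrl28, by 0.87 (adjusted p = 2.9e-05). Gng7, the partner of Gnal in striatal neurons, had 282, 268 and 260.4 in IH5DR2, 346, 234 and 230.0 in IH5D, 267, 205 and 225 in IH28D, 202, 182 and 183 in 12 m, 244, 121 and 109 in Ctrl28 and 272, 317 and 313 in Ctrl. It fell by 1.02 ± 0.23 on the log2 scale in Ctrl28 (SE, adjusted p = 0.00226) and by 0.67 ± 0.23 in 12 m (SE, adjusted p = 0.0206), both against Ctrl. Every array of 12 m and Ctrl28 was lower than every Ctrl array, and the 12 m call was lost without 12 m array 2 or Ctrl array 2 or 3, with a highest adjusted p of 0.0658. Gnal, its partner, was higher in both groups.

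**Figure D4:**
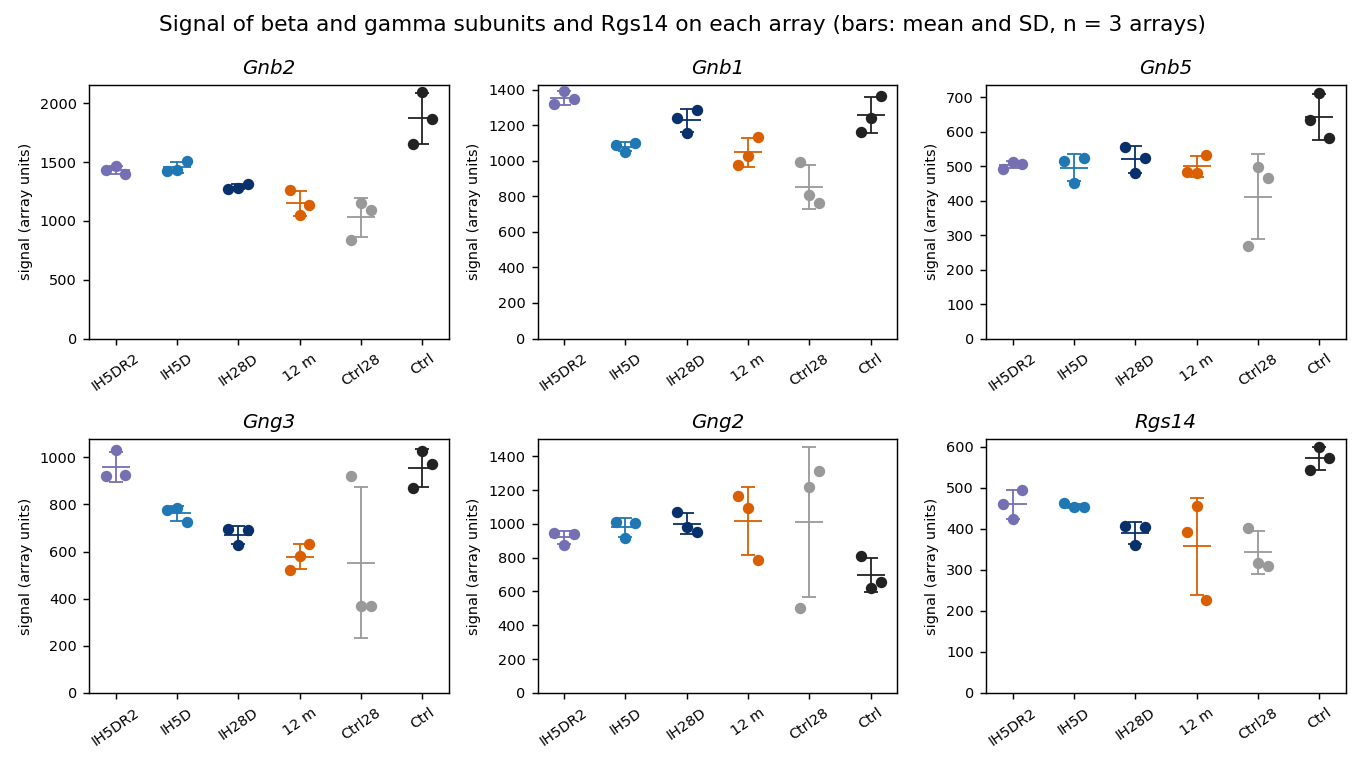
Unlogged array signal (y axis, from 0) of Gnb2, Gnb1, Gnb5, Gng3, Gng2 and Rgs14 on each array, by group (x axis), with the mean and SD of the 3 arrays as bars. Ctrl lies above all other arrays for Gnb2, Gnb5 and Rgs14, and array 1 of Ctrl28 lies away from the other 2 for Gng2, Gng3 and Gnb5.

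Gng12 had 172, 140.3 and 183 in IH5DR2, 172, 154 and 173 in IH5D, 202, 207 and 215 in IH28D, 211, 257 and 229.5 in 12 m, 147, 225 and 263 in Ctrl28 and 155, 123 and 80.3 in Ctrl. Arrays of IH28D and 12 m lay above all Ctrl arrays, whereas Ctrl28 array 1 lay inside the range of Ctrl. It rose by 1.003 ± 0.22 (SE, adjusted p = 0.00115) in 12 m, 0.85 ± 0.22 (SE, adjusted p = 0.00824) in IH28D and 0.83 ± 0.22 (SE, adjusted p = 0.00637) in Ctrl28, each against Ctrl. A second probe set of Gng12 was called down in 12 m (-0.62, adjusted p = 0.0393), so the direction of this gene depends on the probe set. Gng2, a widely expressed gamma subunit, had 948, 876 and 939 in IH5DR2, 1013, 916 and 1008 in IH5D, 1070.2, 980.5 and 950.5 in IH28D, 1164, 1097 and 786 in 12 m, 504, 1216 and 1314 in Ctrl28 and 811, 623 and 654 in Ctrl. The arrays of IH5DR2, IH5D and IH28D lay above all Ctrl arrays. Gng2 passed in no comparison over all arrays. Without Ctrl28 array 1, its lowest array, it was higher in Ctrl28 than in Ctrl by 0.87 (adjusted p = 8.66e-05). One of its probe sets was called down in 12 m (-0.75, adjusted p = 0.00649) while the other 3 had differences above 0. Gng13, a gamma subunit of taste and retinal cells, had 494, 475 and 333 in IH5DR2, 305, 555 and 573 in IH5D, 502, 352 and 214 in IH28D, 451, 421 and 502 in 12 m, 787, 424 and 433 in Ctrl28 and 557, 711 and 703 in Ctrl. It fell in IH28D against Ctrl (-0.96, adjusted p = 0.0204). The IH28D arrays were widely spread and lay below all Ctrl arrays, and the call was lost without IH28D array 2 or 3 or Ctrl array 2 or 3, with a highest adjusted p of 0.112. Gng10 had 1081, 972 and 845 in IH5DR2, 935, 1161 and 1098 in IH5D, 906, 855 and 721 in IH28D, 813, 744 and 558 in 12 m, 866, 1137 and 1255 in Ctrl28 and 1016, 1011 and 1221 in Ctrl, and Gng4 had 442, 553 and 400.1 in IH5DR2, 338, 484 and 574 in IH5D, 517, 513 and 409 in IH28D, 411, 387 and 462 in 12 m, 934, 734 and 563 in Ctrl28 and 525, 620.4 and 623 in Ctrl. The 12 m arrays of Gng10 lay below all Ctrl and Ctrl28 arrays, and those of Gng4 did too. Gng10 fell in 12 m against Ctrl (-0.63, adjusted p = 0.00437) and against Ctrl28 (-0.62, adjusted p = 0.0169), and Gng4 had -0.49 (adjusted p = 0.0454) and -0.80 (adjusted p = 0.0121) in the same comparisons. The first Gng4 call was lost without 12 m array 1 or 2 or Ctrl array 2 or 3, with a highest adjusted p of 0.127, and the second Gng10 call without 12 m array 3 or Ctrl28 array 3, with a highest of 0.0828. Gng11 passed in no comparison.

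Among the RGS proteins, Rgs17 had the largest difference of all tested members in 12 m against Ctrl. It belongs to the RZ class, which acts on Gz and Gi alpha subunits, and is known as a brake on opioid receptors. It had 191, 207 and 162 in IH5DR2, 192, 169.7 and 160.4 in IH5D, 275, 458 and 249 in IH28D, 353, 422 and 496 in 12 m, 68.4, 139 and 189.8 in Ctrl28 and 115, 62.6 and 93.8 in Ctrl. All arrays with IHT and all arrays of 12 m lay above all 3 Ctrl arrays, those of IH28D and 12 m lay above all 6 control arrays, and array 2 of IH28D was far above the other 2. Rgs17 averaged 424 ± 71.7 in 12 m and 90.6 ± 26.6 in Ctrl (SD, n = 3 arrays each), a rise of 2.26 ± 0.30 (SE, adjusted p = 3.35e-05). It rose in IH28D by 1.37 ± 0.30 (SE, adjusted p = 0.00926) against Ctrl28 and by 1.84 ± 0.30 (SE, adjusted p = 0.000948) against Ctrl, and in 12 m by 1.79 ± 0.30 (SE, adjusted p = 0.0014) against Ctrl28. In Ctrl28 against Ctrl the difference was 0.47 (adjusted p = 0.231), and without Ctrl28 array 1 it was 0.89 (adjusted p = 0.00739).

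After 5 days of IHT Rgs17 differed from Ctrl by 0.98 (adjusted p = 0.0572) in IH5D and 1.08 (adjusted p = 0.0462) in IH5DR2, so that only the second passed. That call was lost without any array of the 2 groups except Ctrl array 1, with a highest adjusted p of 0.245. The call against Ctrl28 in IH28D was lost without IH28D array 2, at 1.10 (adjusted p = 0.057), and when the gap between 3′ and 5′ controls was a covariate. It was 0.96 (adjusted p = 0.0154) when Ctrl28 array 1 was left out. Its second probe set was also called up in IH28D and 12 m against either control, by 1.06 to 1.69. The rise in 12 m against Ctrl was 2.13 without the array that carries neocortex and striatum markers (adjusted p = 0.000237).

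The other RZ members behaved unlike Rgs17. Rgs19, which acts on Gi alpha subunits, had 219, 237 and 254 in IH5DR2, 278, 256 and 259.6 in IH5D, 216, 194 and 218 in IH28D, 184, 174 and 109.9 in 12 m, 172, 165 and 166 in Ctrl28 and 243, 302 and 315 in Ctrl. It fell by 0.91 ± 0.16 on the log2 scale in 12 m (SE, adjusted p = 0.000298) and by 0.77 ± 0.16 in Ctrl28 (SE, adjusted p = 0.00168), both against Ctrl. Neither group overlapped with Ctrl, and array 3 of 12 m was the lowest. Without that array the fall in 12 m was 0.67 (adjusted p = 0.0011). In IH28D against Ctrl it fell by 0.44 (adjusted p = 0.0444), a call lost without any array of the 2 groups except Ctrl array 1, with a highest adjusted p of 0.148. Rgs20, the closest relative of Rgs17, had 195, 202 and 258 in IH5DR2, 169, 238 and 186 in IH5D, 187, 179 and 171 in IH28D, 214, 134 and 395 in 12 m, 368, 211 and 184 in Ctrl28 and 232, 139.8 and 192 in Ctrl. It was highest on 12 m array 3 and passed in no comparison.

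Rgs7bp, which holds complexes of R7 RGS proteins and Gnb5 at the membrane, had 452, 503 and 398 in IH5DR2, 564, 455 and 409.9 in IH5D, 499, 669 and 633 in IH28D, 546, 509 and 715 in 12 m, 318, 396 and 473 in Ctrl28 and 364, 279 and 283 in Ctrl. IH28D and 12 m lay above all control arrays. It rose by 0.96 ± 0.18 (SE, adjusted p = 0.00172) in IH28D and 0.93 ± 0.18 (SE, adjusted p = 0.000521) in 12 m against Ctrl. Against Ctrl28 the rises of 0.61 (adjusted p = 0.0433) in IH28D and 0.58 (adjusted p = 0.0359) in 12 m were both lost without Ctrl28 array 1 or Ctrl28 array 2, with highest adjusted p-values of 0.154 and 0.149. The IH28D call was also lost without IH28D array 2 or 3, and the 12 m call without 12 m array 1 or 3. The rise in IH5D was 0.62 ± 0.18 (SE, adjusted p = 0.0481). With the replicate block its adjusted p was 0.0686, and it was lost without any IH5D array or Ctrl array 2 or 3, with a highest of 0.216. All 3 probe sets of Rgs7bp were called up in 12 m against Ctrl.

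The R7 RGS proteins that Rgs7bp binds act on Gi and Go in neurons. Rgs7 itself had 446, 408 and 437 in IH5DR2, 486, 391 and 457 in IH5D, 448, 498 and 457 in IH28D, 482, 426 and 490.4 in 12 m, 497, 519 and 514 in Ctrl28 and 514, 403 and 415 in Ctrl. Each other group overlapped with Ctrl, it passed in no comparison, and its differences from Ctrl lay between -0.04 in IH5DR2 and 0.21 in Ctrl28. Rgs11, named here after its values were seen because its signals are low, had 59.5, 56.9 and 89.4 in IH5DR2, 79.3, 62.2 and 64.2 in IH5D, 60.9, 80.3 and 63.3 in IH28D, 65.1, 62.4 and 85.4 in 12 m, 42.4, 32.9 and 21.1 in Ctrl28 and 48.97, 31.5 and 69.4 in Ctrl. All Ctrl28 arrays lay below those of IH28D and 12 m. Rgs11 rose in IH28D (1.13, adjusted p = 0.0212) and 12 m (1.19, adjusted p = 0.0106) against Ctrl28. The IH28D call was lost without IH28D array 2 or 3 or Ctrl28 array 3, with a highest adjusted p of 0.0853. Rgs9, a striatal member, had 69.7, 87.4 and 52.01 in IH5DR2, 76.7, 85.05 and 76.4 in IH5D, 66.1, 51.9 and 62.97 in IH28D, 76.7, 58.2 and 197 in 12 m, 61.2, 43.4 and 45.04 in Ctrl28 and 67.7, 93.3 and 70.8 in Ctrl. Array 3 of 12 m alone was high. Its call in 12 m against Ctrl28, 0.96 (adjusted p = 0.0484), was lost without that array, at 0.44 (adjusted p = 0.24), and without Ctrl28 array 2 or 3.

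Rgs5 led the R4 class, small RGS proteins that act on Gq and Gi. In brain Rgs5 is a marker of pericytes, the contractile cells around capillaries. It had 665, 574 and 539 in IH5DR2, 670.5, 599.8 and 609 in IH5D, 673, 828 and 688 in IH28D, 814, 817 and 769.5 in 12 m, 525, 756 and 875 in Ctrl28 and 497, 348 and 329 in Ctrl. All Ctrl arrays lay below the other 15. Rgs5 rose by 0.70 ± 0.18 (SE, adjusted p = 0.03) in IH5D, 0.62 ± 0.18 (SE, adjusted p = 0.0479) in IH5DR2, 0.92 ± 0.18 (SE, adjusted p = 0.00184) in IH28D, 1.06 ± 0.18 (SE, adjusted p = 0.000162) in 12 m and 0.87 ± 0.18 (SE, adjusted p = 0.00109) in Ctrl28, each against Ctrl. The IH5D and IH5DR2 calls were lost without any array of the 2 groups compared except Ctrl array 1, with highest adjusted p-values of 0.164 and 0.219.

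The sum of 8 markers of pericytes and vascular smooth muscle did not follow Rgs5: it was 841 to 1167 in IH5DR2, 782 to 995 in IH5D, 773 to 1064 in IH28D, 771 to 938 in 12 m, 771 to 1103 in Ctrl28 and 1196 to 1399 in Ctrl. It was highest in Ctrl, where Rgs5 was lowest. Of the 4 probe sets of Rgs5 above the minimum, 2 were called up in 12 m and in Ctrl28, and the other 2 did not pass. Of those, the dimmest had differences of -0.10 in 12 m and -0.39 in Ctrl28, and the other one 1.08 in 12 m and -0.12 in Ctrl28. With the mean of all probe sets the Rgs5 calls against Ctrl were kept in IH28D and 12 m and lost in IH5D (adjusted p = 0.194), IH5DR2 (adjusted p = 0.325) and Ctrl28 (adjusted p = 0.13).

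Rgs2, which acts mainly on Gq and is induced by neuronal activity, had 381, 404 and 430.4 in IH5DR2, 351, 456 and 462 in IH5D, 539, 452 and 422 in IH28D, 507, 487 and 651 in 12 m, 610.2, 549 and 470.4 in Ctrl28 and 339, 328 and 357 in Ctrl. The arrays of IH28D, 12 m and Ctrl28 lay above all Ctrl arrays. It rose by 0.67 ± 0.15 (SE, adjusted p = 0.0013) in 12 m, 0.66 ± 0.15 (SE, adjusted p = 0.00222) in Ctrl28 and 0.46 ± 0.15 (SE, adjusted p = 0.0255) in IH28D against Ctrl, and all 3 of its probe sets were called up in 12 m and Ctrl28. The IH28D call was lost without IH28D array 1 or 2 or Ctrl array 2 or 3, with a highest adjusted p of 0.102. The sum of 8 immediate early genes was 3276 to 5140 in IH28D, 4323 to 7307 in 12 m, 1895 to 3381 in Ctrl28 and 2325 to 2893 in Ctrl, and its part in the Rgs2 values was not tested. Rgs4, the neighbour of Rgs5 on chromosome 1 and an RGS protein of cortical neurons, had 653, 632 and 581 in IH5DR2, 483, 546 and 591 in IH5D, 539, 384 and 665 in IH28D, 536, 548 and 1337 in 12 m, 562, 537 and 476 in Ctrl28 and 680.3, 523 and 739 in Ctrl. Array 3 of 12 m, the one with neocortex markers, was the highest of the 18. Rgs4 passed in no comparison, and its difference in 12 m against Ctrl was 0.19 with that array and -0.24 without it.

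Rgs8, best known from Purkinje cells of the cerebellum, had 245, 221 and 277 in IH5DR2, 224, 214 and 206 in IH5D, 206, 185 and 294 in IH28D, 205, 178 and 175 in 12 m, 167, 167 and 148 in Ctrl28 and 231, 213 and 233 in Ctrl. Ctrl28 lay below all other arrays, and Rgs8 fell there against Ctrl (-0.49, adjusted p = 0.0174), a call lost without Ctrl28 array 3 or Ctrl array 3, with a highest adjusted p of 0.0729. Rgs3 had 138, 113 and 111 in IH5DR2, 98.8, 144 and 111 in IH5D, 81.9, 112 and 94.4 in IH28D, 88.3, 84.3 and 124 in 12 m, 80.6, 80.3 and 99.5 in Ctrl28 and 121, 168 and 155 in Ctrl. Its IH28D and Ctrl28 arrays lay below all Ctrl arrays, and 12 m array 3 lay inside the range of Ctrl. Rgs3 fell against Ctrl in Ctrl28 (-0.76, adjusted p = 0.00545), IH28D (-0.62, adjusted p = 0.0225) and 12 m (-0.59, adjusted p = 0.0172). The IH28D call was lost without IH28D array 1 or 3 and the 12 m call without 12 m array 1 or 2, and both without Ctrl array 2 or 3, with a highest adjusted p of 0.105. Rgs16, a neighbour of Rgs8 on the same chromosome, had 15.6, 23.5 and 56.7 in IH5DR2, 27.8, 56.6 and 53.6 in IH5D, 45.9, 38.6 and 59.3 in IH28D, 48.7, 7.96 and 46.4 in 12 m, 126, 52.3 and 49.97 in Ctrl28 and 54.5, 72.97 and 60.3 in Ctrl. The 12 m arrays lay below all Ctrl arrays, each other group overlapped with Ctrl, and Rgs16 passed in no comparison over all arrays. Its difference in 12 m against Ctrl was -1.24 (adjusted p = 0.0767), and without 12 m array 3 it was -1.66 (adjusted p = 0.036).

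The R12 class holds Rgs14, a marker of the CA2 field that limits plasticity there, and Rgs10, the main RGS protein of microglia. Rgs14 had 460.3, 423 and 496 in IH5DR2, 462, 453 and 454 in IH5D, 407, 359.6 and 405 in IH28D, 393, 455 and 226 in 12 m, 402, 317 and 308 in Ctrl28 and 543, 599 and 574 in Ctrl. All Ctrl arrays lay above the other 15. Rgs14 fell by 0.75 ± 0.19 on the log2 scale in Ctrl28 (SE, adjusted p = 0.00471), by 0.74 ± 0.19 in 12 m (SE, adjusted p = 0.0035) and by 0.55 ± 0.19 in IH28D (SE, adjusted p = 0.0312). The IH28D call was lost without any array of the 2 groups except Ctrl array 1, with a highest adjusted p of 0.106. Without 12 m array 3 the fall in 12 m was 0.44 (adjusted p = 0.015). The sum of 3 CA2 markers was 836 to 997 in 12 m, 765 to 1101 in Ctrl28 and 1330 to 1769 in Ctrl, with no overlap, and its part in the Rgs14 values was not tested.

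Rgs10 had 316, 357 and 282 in IH5DR2, 249.9, 341 and 324 in IH5D, 319, 280.1 and 243 in IH28D, 269.7, 232 and 256 in 12 m, 448, 348 and 339.9 in Ctrl28 and 309, 411 and 398 in Ctrl. The 12 m arrays lay below all arrays of both controls. It fell in 12 m against Ctrl (-0.55, adjusted p = 0.00914) and against Ctrl28 (-0.58, adjusted p = 0.0231). The second call was lost without 12 m array 2 or 3 or Ctrl28 array 1, with a highest adjusted p of 0.0795. The sum of 8 microglia markers was 2473 to 2705 in 12 m, 2336 to 3466 in Ctrl28 and 3245 to 4031 in Ctrl. The median log2 difference of these 8 markers was -0.60 in 12 m against Ctrl and 0.42 against Ctrl28. The part of microglia in the Rgs10 values was not tested. Rgs12, the third of the class, passed in no comparison.

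By role, in 12 m against Ctrl, where 21.7% of all genes rose and 31.6% fell, the 11 tested alpha subunits held 4 rises and 3 falls (36.4% and 27.3%). The 4 beta subunits held 0 and 2 (0% and 50%), the 8 gamma subunits 1 and 4 (12.5% and 50%), and the 15 RGS proteins 3 and 4 (20% and 26.7%). Those of the RGS proteins lie near the shares of all genes, and the groups are small. The beta subunits had a median of -0.53, the gamma subunits -0.50, the alpha subunits 0.16 and the RGS proteins 0.08, beside -0.23 over all genes. In IH28D against Ctrl28 the medians were 0.36 for beta, -0.18 for gamma and 0.14 for RGS proteins.

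Among called members the probe sets mostly ran the same way within a gene in 12 m against Ctrl. Gna13, Gnas, Gng2, Rgs4 and Rgs20, not called there, had probe sets on both sides of 0 and are outside the counts that follow. Of the 22 members called in 12 m against Ctrl, 16 had several probe sets above the minimum, and in 13 of these all ran in the direction of the call. In 11 another probe set was called too, and in 1, Gng12, a probe set was called in the opposite direction. In IH28D against Ctrl28 this was 5 of 7 with several, and another probe set was called in 2, Rgs17 and Rgs7bp. With the mean of all probe sets in place of the brightest, 31 of the 92 calls were lost. In IH28D against Ctrl28 these were Gnai1, Gnao1, Gnaz, Gnb1 and Rgs7bp, in 12 m against Ctrl Gna12, Gnb4 and Gng12, and in Ctrl28 against Ctrl Gna13, Gnao1, Gnas, Gnaz and Rgs5. With RNA quality (the 3′ to 5′ gap) in the fit 7 were lost: Gnb5 in Ctrl28 against Ctrl, Rgs17 and Rgs7bp in IH28D and Gng4, Rgs10 and Rgs7bp in 12 m against Ctrl28, and Gnb2 in the difference between the 28-day and 5-day responses.

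**Figure D5:**
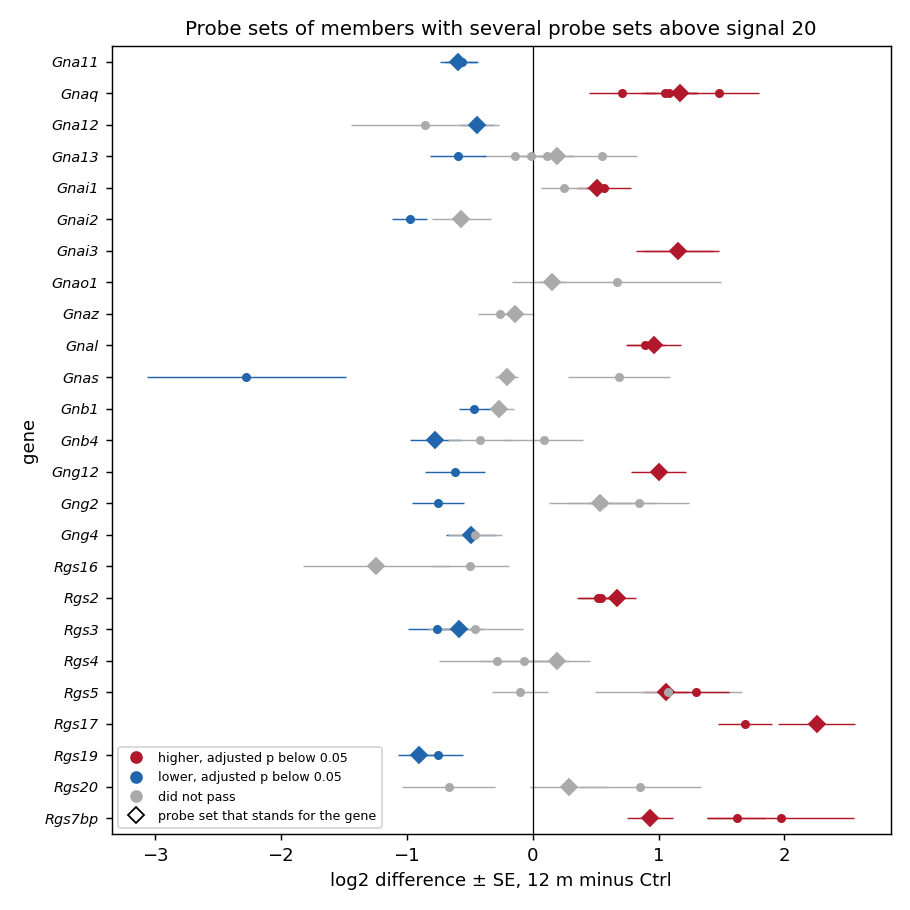
Log2 difference with SE of 12 m minus Ctrl (x axis) for 69 probe sets of the 25 tested members with several probe sets above a signal of 20 (y axis), from a fit over all probe sets of single genes. The 5 probe sets of Gnaq and the 3 of Rgs7bp lie together on the right, while those of Gng12 and Gng2 lie on both sides of 0.

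Across the 18 arrays, which share group and array quality, the members most alike in their log2 signals were described by Pearson's r. Rgs5 was most like Gnaq (r = 0.931, and 0.779 with group means removed), Rgs17 was most like Rgs7bp (0.916 and 0.752), and Gng3 most like Gng7 (0.908 and 0.833). Rgs14 was most like Rgs19 (0.899 and 0.84), and Gnb1 most like Gnaz (0.868 and 0.715). Gnai1 was most like Rgs2 (0.821), where r within groups was 0.439, and Gnal was most like Gnai1 (0.768), where r within groups was 0.0277. All r include the doubted arrays and were not computed without them. Rgs14 and Rgs19 both had their lowest signal on 12 m array 3. Gng3 and Gng7 were both higher on Ctrl28 array 1 than on arrays 2 and 3 of that group.

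The partners of these proteins were taken from a list of receptors, effectors and regulators, of which 57 genes were tested. Against Ctrl, 7 partners rose and 0 fell in IH5D (12.3% and 0%, against 5.4% and 1.12% of all genes), and 3 and 0 in IH5DR2 (5.26% and 0%, against 4.38% and 1.24%). In IH28D 11 rose and 5 fell (19.3% and 8.77%, against 17.5% and 15.8% of all genes). In 12 m 16 rose and 15 fell (28.1% and 26.3%, against 21.7% and 31.6%), and in Ctrl28 11 and 10 (19.3% and 17.5%, against 16.9% and 21%). Against Ctrl28, 3 rose and 2 fell in IH28D (5.26% and 3.51%, against 6.05% and 2.45% of all genes), and 1 and 4 in 12 m (1.75% and 7.02%, against 8.04% and 8.3%). The 7 partner calls in IH5D against Ctrl were all lost without Ctrl array 2 or Ctrl array 3, when 0 of all genes passed. In IH5DR2 against Ctrl, 0 of all genes passed without Ctrl array 2 and 7 without Ctrl array 3. Grm5, a Gq-coupled glutamate receptor, rose by 0.92 in IH5D, 1.44 in IH5DR2, 1.32 in IH28D, 1.76 in 12 m and 1.18 in Ctrl28, each against Ctrl. Plcb1, a phospholipase C beta that Gq activates, rose by 1.40 in 12 m against Ctrl and by 0.75 in IH28D. In 12 m against Ctrl, Plcb4 of the same family rose by 1.41, whereas Plcb3 fell (-0.66). Kcnj3, a potassium channel subunit opened by beta-gamma dimers, rose against Ctrl by 0.84 in IH5D, 0.56 in IH5DR2, 0.59 in IH28D, 1.29 in 12 m and 0.88 in Ctrl28. Prkar2b, a regulatory subunit of protein kinase A, rose by 0.67 in IH5D, 0.70 in IH5DR2, 0.81 in IH28D, 1.39 in 12 m and 1.11 in Ctrl28.

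Other partners fell. Chrm1, the M1 muscarinic receptor and Gq-coupled, differed from Ctrl by -0.73 in 12 m and -1.17 in Ctrl28, and rose by 0.77 in IH28D against Ctrl28. Gabbr1, a subunit of the GABA-B receptor, differed from Ctrl by -0.56 in 12 m, -0.35 in IH28D and -0.59 in Ctrl28. Prkaca, a catalytic subunit of protein kinase A, had -0.75 in 12 m against Ctrl and -0.81 against Ctrl28. Prkacb, another catalytic subunit, went the other way and rose by 0.81 in 12 m and 0.63 in IH28D, both against Ctrl. Ric8a, a chaperone of Gi, Gq and G12 alpha subunits, fell by 1.06 on the log2 scale in IH28D against Ctrl28 and by 0.59 in 12 m against Ctrl. All these partner values passed at an adjusted p below 0.05 over all 18 arrays.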

How the data were processed

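RNA of the hippocampus was hybridised to 18 Affymetrix 430 2.0 arrays, 3 in each of 6 groups taken from the labels. The authors scaled each array with MAS5 and deposited log2 signals, which were unlogged to show levels, and the trimmed mean of every array is 100. Depth has no meaning for arrays, and their number, 3 a group, limits the precision. Of 45101 probe sets, 34945 had 1 gene, 932 several and 9160 none, and only the first kind was used. The brightest probe set stood for a gene, and 11656 genes had a mean signal above 20. limma 3.58.1 in R 4.3.3 was fitted on the log2 signals with a mean for each group, a variance trend and no block, and p-values were adjusted by the Benjamini-Hochberg method over all genes. Promoter windows and symbols came from RefSeq tables, which were read with Python 3.11.15, and figures were drawn with matplotlib 3.10.9.

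Members named with values on arrays were, in each comparison, up to 6 called members with the largest rise and up to 6 with the largest fall among those with a group mean of at least 100, and a fixed set named whatever their values. The members, roles, partner lists and marker lists were chosen with earlier results of these data known, and the lists are no independent evidence. Equally numbered arrays of IH5D and Ctrl correlated in their deviations from the group means (0.153, 0.289 and 0.239), so that a replicate block is given beside that comparison. In no other comparison were all 3 correlations above 0.1. The alternatives were other filters, probe set rules, normalizations and tests, array weights, RNA quality as a covariate, and each array left out in turn. Leaving out the 2 doubted arrays together, blocking IH5D and Ctrl alone and fitting every probe set were chosen after seeing the data. The fit was tested on simulated data. The methods' t-test is Welch's test on unlogged signals.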

Additional observations from a re-analysis of the deposited data

Results flagged for a closer look

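For 7 members the response to 28 days of IHT (IH28D against Ctrl28) differed from the response to 5 days (IH5D against Ctrl), by limma's test of the difference itself over all 18 arrays. The difference is the 28-day response minus the 5-day response on the log2 scale. It was -0.7627 for Gnai1 (adjusted p = 0.00191), whose responses were -0.42 and 0.35. For Gnal it was -1.392 (adjusted p = 0.00878), with -1.04 after 28 days and 0.36 after 5 days. For Gnaq it was -0.7265 (adjusted p = 0.0282), where the 28-day response was below 0.01 in size and the 5-day response was 0.73. That 28-day response is of the brightest probe set, and the 5 probe sets of Gnaq ranged from -0.0003 to 1.03 there. Gnao1 had 0.8391 (adjusted p = 0.00367), with 0.88 after 28 days and 0.04 after 5 days. Gnaz had 0.8143 (adjusted p = 0.027), with 0.78 and -0.03. Gnb1 had 0.7522 (adjusted p = 0.00739), with 0.53 and -0.22. Gnb2 had 0.6955 (adjusted p = 0.0183), with 0.34 and -0.36, neither of which passed by itself.

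The controls of the 2 responses differed for all 7 genes: in Ctrl28 against Ctrl, Gnai1, Gnal and Gnaq rose and Gnao1, Gnaz, Gnb1 and Gnb2 fell. Each difference of responses holds the difference between the 2 controls as well as that between IH28D and IH5D. Mean log2 signals in IH28D and IH5D were 11.15 and 11.13 for Gnai1, 8.04 and 8.13 for Gnal, and 9.96 and 9.91 for Gnaq. They were 10.22 and 9.90 for Gnao1, 7.95 and 7.67 for Gnaz, 10.26 and 10.075 for Gnb1, and 10.33 and 10.51 for Gnb2. The part of the controls in the differences of responses was not tested. The differences of Gnai1, Gnal, Gnao1 and Gnb1 passed without each of the 12 arrays of the 4 groups. With the mean of all probe sets, however, those of Gnai1 (-0.46, adjusted p = 0.111), Gnao1 (0.40, adjusted p = 0.726), Gnb1 (0.36, adjusted p = 0.102), Gnaq (-0.37, adjusted p = 0.37) and Gnaz (0.45, adjusted p = 0.177) were lost. Of the 6 genes with several probe sets, 3 had all of them running in the direction of the call, and 0 had another probe set that was called. The difference of Gnb2 was 0.36 (adjusted p = 0.102) with RNA quality, the 3′ to 5′ gap, in the fit. It was also lost with the compared groups alone and without Ctrl array 2 (adjusted p = 0.0596), and those of Gnaq and Gnaz each passed in 5 of 12 such fits, with highest adjusted p-values of 0.0916 and 0.0731.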

How the results depend on the processing

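Numbers of called members follow in place of those in the report: 4 for IH5D, 4 for IH5DR2 and 16 for IH28D against Ctrl, 8 for IH28D against Ctrl28, 22 for 12 m and 22 for Ctrl28 against Ctrl, 9 for 12 m against Ctrl28, and 7 for the difference between the 28-day and 5-day responses. IH5DR2 against IH5D gave 0 in every setting. No call changed direction. In the IH5D comparison they were 2 with no minimum signal, 1 with the mean of all probe sets, 1 with median centring, 2 with no variance trend, 10 with the compared groups alone, 11 with RNA quality as a covariate, 12 with array weights, 12 without the 2 doubted arrays and 0 with the methods' t-test. In the same order, 449, 415, 255, 454, 2130, 2912, 3589, 3177 and 0 of all genes were called. The setting with no minimum takes in more genes than the others. A replicate block gave 3 members for IH5D over all arrays, 21 for IH5D and Ctrl alone, and 1 for IH5DR2. Of all genes it gave 434, 4092 and 340. In the IH5DR2 comparison the members called were also 1 with no minimum, 2 after quantile normalization, 0 with median centring, 1 with no trend, 12 with the groups alone, 11 with the covariate, 13 with weights, 13 without both arrays and 0 with the t-test. All genes called were 373, 514, 164, 322, 2197, 2624, 3567, 3097 and 0 in that order. IH28D against Ctrl28 gave 5 with the mean of all probe sets, 5 with median centring, 0 with the groups alone, 14 with the covariate, 19 with weights, 18 without both arrays and 0 with the t-test. All genes gave 888, 439, 35, 1857, 3390, 2135 and 1 there. IH28D against Ctrl gave 26 without both arrays and 0 with the t-test (5621 and 0 of all genes). For 12 m against Ctrl the t-test gave 4 (1517 of all genes). For 12 m against Ctrl28 the groups alone gave 0, weights 19 and the t-test 0 (172, 4157 and 0 of all genes). Ctrl28 against Ctrl gave 12 with the groups alone and 0 with the t-test (1972 and 0 of all genes). The difference between responses gave 4 with the mean of all probe sets, 4 with the groups alone, 17 with the covariate, 23 with weights and 23 without both arrays. Of all genes it gave 1026, 693, 3535, 4449 and 3730. With single arrays left out the ranges were 0 to 11 for IH5D, 0 to 11 for IH5DR2, 7 to 25 for IH28D and 16 to 26 for 12 m against Ctrl, 6 to 14 for IH28D and 5 to 11 for 12 m against Ctrl28, 19 to 28 for Ctrl28 against Ctrl and 4 to 19 for the difference. The ranges over all genes were 0 to 2727, 0 to 2594, 1664 to 5200, 4629 to 7051, 462 to 1818, 1145 to 2161, 2829 to 6210 and 529 to 3331. The causes were not tested. At an unadjusted p below 0.05 the methods' t-test gave 11 members for IH5D, 11 for IH5DR2, 18 for IH28D and 13 for Ctrl28 against Ctrl, 9 for IH28D and 6 for 12 m against Ctrl28. It gave 2589, 2515, 3837, 2807, 1194 and 1535 of all genes in that order. Of the 92 calls of single members, 92 were kept with array weights, 83 after quantile normalization, 73 with median centring, 62 with the compared groups alone and 61 with the mean of all probe sets, and 4 of 85 with the t-test. With single arrays of the compared groups left out, 452 of 594 refitted calls passed. With 3 arrays a group, an exact permutation test cannot go below p = 0.1. For no other groups were all 3 correlations of equally numbered arrays above 0.1. The labels do not say what a shared number means, so whether those groups were paired cannot be told. Ctrl28 against Ctrl had correlations of -0.365, -0.204 and -0.0474.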
